A study of Mus musculus with 8 samples.

Results

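The transcription factor Pax6 occupied 5032 sites of moderate signal that carried a peak summit in every one of 4 Pax6 chromatin immunoprecipitation (ChIP-seq) libraries. They were chosen from the 26244 sites, each a window of 100 bp, of the authors' deposited table, and made up 19.2% of them. A site was taken when its control concentration was below 8 and each of the 4 libraries had a summit within 250 bp of its middle. Concentration is the authors' mean signal of a group, read here as a log2 value. Of 5250 sites with a summit in all 4 libraries, 218 had a control concentration of 8 or more and are called the strong sites here. Moderate means only below that limit, since the rule set no lower one. The remaining 20950 sites below 8 lacked a summit in at least 1 library. The 5032 sites were annotated to 3445 of the table's 10197 genes.

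The libraries came from alphaTC1 cells, a mouse line of glucagon-producing pancreatic alpha cells. Paupar knockdown (KD) cells received antisense oligonucleotides against Paupar, a long non-coding RNA gene that neighbours Pax6, and control KD cells received oligonucleotides with a scrambled sequence. Each group had 2 Pax6 ChIP libraries, described by the submitters as biological duplicates of a single cell line, so any spread between them may be partly technical. The question was where Pax6 sat in the genome after Paupar KD and after control KD. Paupar RNA is not measured by this assay, so the knockdown itself was not checked. ChIP gives occupancy and not RNA, so the cell type could not be checked by expression. Of the alpha-cell marker genes Gcg, Irx1, Irx2, Ttr, Pcsk2 and Slc38a5, the genes Gcg, Irx1 and Ttr had a site of the set and the other 3 had none. Of the beta-cell markers, Pdx1 and Nkx6-1 had one and Ins1, Ins2, Mafa and Iapp had none, and of the delta-cell markers Hhex had one and Sst had none. The signal is an average over many cells, so less Pax6 at a site in each cell and fewer cells with Pax6 there cannot be told apart.

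Pax6 contacts DNA through a paired domain and a homeodomain, which read different sequences and can act together or alone. In the pancreas it is needed for the endocrine cells and for transcription of the hormone genes, including the glucagon gene in alpha cells. The same factor is a master regulator of the eye, with crystallin genes among its lens targets, and it patterns neural progenitors.

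The sequence under these sites could be read at promoters, where 314 of the 1392 promoter sites lay whole inside a promoter sequence of RefSeq (build GRCm38.p6, the assembly that UCSC names mm10). TTCACGC, a core of the paired-domain motif of Pax factors, was searched on both strands of the site window and was found in 7 of the 314 sites (2.23%). It was found in 5 of the 643 other sites with control concentrations of 5 to 8 (0.778%), and in 0.387% of 32851 promoters over the 100 bases before the start. The 6 sites with the word and the highest mean signal are shown here with 11 bases on each side, the word in capitals, on the strand that reads it from left to right.
Pot1a, chr6:25809243-25809271, plus strand: gagcagcttagTTCACGCatgcgtactcc
Ccdc191, chr16:43889763-43889791, minus strand: ggaagcttgctTTCACGCtgttactatgg
Timm8b, chr9:50603871-50603899, minus strand: ctgccttccggTTCACGCttcaggttgcc
Ddx49, chr8:70302470-70302498, minus strand: gtgacgtagcaTTCACGCgccggaagcac
Rsrc2, chr5:123749538-123749566, minus strand: acttcgtaggcTTCACGCcacgcccttcg
Med6, chr12:81595060-81595088, plus strand: ggtcaaaagtaTTCACGCggagcgcggcg

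Of the 28 distances between a TTCACGC word and a library's summit in the 7 sites, 17 were at most 50 bp. The word was searched only inside the site's window of 100 bp, and summits of the set mostly lay near its middle. Within 50 bp of the middle were 58.8% and 67.3% of them in Paupar KD and 69.2% and 63.3% in control KD. Short distances therefore follow largely from the window, and binding at the word was not tested. At Med6, a subunit of the Mediator complex, the distances were 24 and 3 bp in the Paupar KD libraries and 29 and 44 bp in the control KD libraries. At Pot1a, which protects chromosome ends, they were 28 to 47 bp in Paupar KD and 2 to 67 bp in control KD. The words lay farther away at Timm8b, with 77 and 46 bp in Paupar KD and 71 and 70 bp in control KD, and at Rsrc2, with 65 to 205 bp over the 4 summits. None of the 7 sites was called different after Paupar KD according to the authors' deposited table. The Pot1a site had 7.09 in Paupar KD and 7.54 in control KD (false discovery rate, FDR, 0.405), and the Med6 site had 6.05 in Paupar KD and 6.08 in control KD (FDR 0.986), per the authors' deposited table. With the whole promoter sequence of 300 bases searched, the word was found in 4.78% of the 314 sites and in 1.56% of the 643 others.

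Other short words varied in how their shares compared with those at the others. The 643 others had control concentrations of 5 to 8, while the 314 sites had no lower limit. The shorter TCACGC, which every TTCACGC contains, was found in 5.10% of the 314 sites, in 3.58% of the others and in 2.58% of all promoters. CCAAT, the word bound by NF-Y, was in 23.6%, against 23.0% of the others and 18.9% of all promoters, and GGGCGG, the GC box, in 23.6%, against 28.1% and 24.7%. The ETS word CCGGAAG was in 12.7% against 15.1% of the others, and in 4.52% of all promoters. The E-box CAGNTG, a class of word that NeuroD-type factors bind, was in 20.7% against 13.5% of the others, and in 20.8% of all promoters. The homeodomain word TAATTA was in 0.637% against 0.156% of the others (2 sites and 1 site), and in 1.61% of all promoters; over 300 bases it was in 4.78% against 1.40%. The palindromic motif of paired-class homeodomains was in 0% of both groups of sites and 0.131% of all promoters. The sites' bases were 57.0 ± 6.60% G or C, against 60.6 ± 6.12% at the others (SD over 314 and 643 sites). These shares describe the windows and were not tested.

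The glucagon gene is the hormone gene of alpha cells, and the part of its site's window that lies before the start is shown because the site covers the start of Gcg (chr2:62483654-62483706, minus strand); it holds no TTCACGC. Dll1, a Notch ligand of the neural list below, had a promoter site 0.137 kb before its start, whose whole window is shown beside it (chr17:15377009-15377108, minus strand). Stk38l and Map2k7, both kinase genes, are shown as promoter sites that were left out of the set for want of a summit in every library (chr6:146724809-146724908 and chr8:4238528-4238627, both plus strand). Their control concentrations were higher, 7.98 and 7.93 against 7.01 at Gcg and 7.33 at Dll1, by the authors' deposited table.
Gcg: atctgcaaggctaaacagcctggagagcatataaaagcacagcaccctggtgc
Dll1: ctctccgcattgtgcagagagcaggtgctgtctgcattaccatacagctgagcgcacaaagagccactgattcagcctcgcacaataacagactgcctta
Stk38l: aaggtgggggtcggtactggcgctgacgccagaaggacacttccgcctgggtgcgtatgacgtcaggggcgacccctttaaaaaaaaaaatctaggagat
Map2k7: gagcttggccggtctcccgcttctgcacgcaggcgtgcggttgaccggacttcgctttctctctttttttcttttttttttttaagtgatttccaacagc

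Signal at the set was below that of the strong sites but high for the table in both groups, and somewhat lower after Paupar KD. The median concentration was 5.72 in Paupar KD (quartiles 5.19 and 6.27) and 5.95 in control KD (quartiles 5.36 and 6.57) by the authors' deposited table. Over all sites the medians were 4.48 in Paupar KD and 4.34 in control KD, with upper quartiles of 5.32 and 5.46, per the authors' deposited table. The median log2 change, Paupar KD minus control KD, was -0.27 over these sites, -0.53 over the strong sites, 0.08 over the others below 8 and -0.03 over all sites, according to the authors' deposited table. Of the 5032 changes, 3471 (69.0%) were below 0, 1528 above 0 and 33 equal to 0 per the authors' deposited table. Most were small, since 93.0% lay within 1 log2 unit of 0, against 73.9% of all sites, by the authors' deposited table. At an FDR below 0.05 the authors' deposited table called 91 sites (1.81%) higher and 89 (1.77%) lower after Paupar KD. Without a summit required in control KD replicate 2, the counts were 174 higher and 93 lower, and with summits within 100 bp 55 higher and 75 lower, per the authors' deposited table. Over the 25234 sites inside the authors' adjustment, 3.39% were called higher and 0.88% lower. At an FDR below 0.01 there were 50 higher and 15 lower sites of the set, with 1.45% and 0.143% of all tested sites, and below 0.1 there were 122 higher and 198 lower, with 5.19% and 1.87%. The choice of the set used the control concentration and the summits of the same libraries, so these counts are a description and nothing is read from them.

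**Figure D1:**
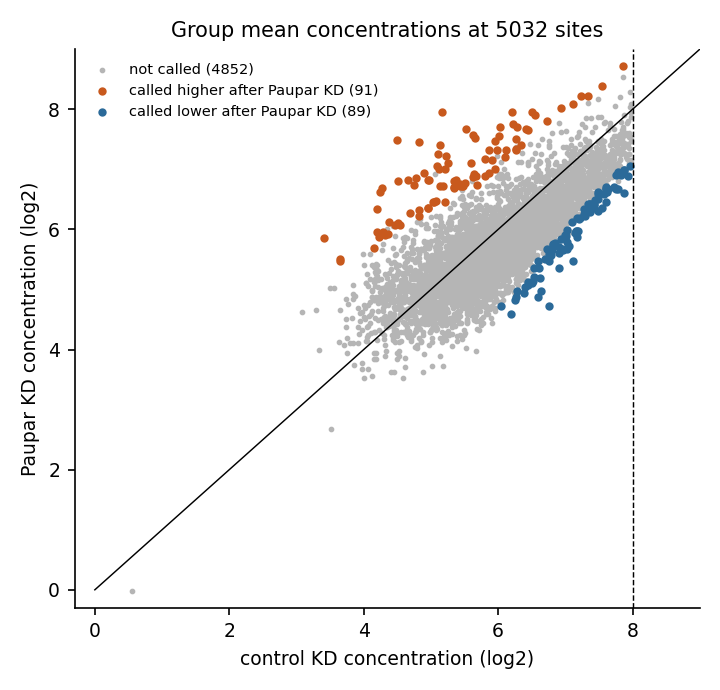
Group mean concentrations at the 5032 sites according to the authors' deposited table, on log2 scales: control KD on the x axis, Paupar KD on the y axis. Each point is a site, coloured points are the 91 called higher and the 89 called lower after Paupar KD, the diagonal marks equal signal and the dashed line the upper limit of 8; most grey points lie within 1 unit of the diagonal.

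Sites called higher had low signal in control KD, and sites called lower had high signal there. The 91 higher sites had median concentrations of 6.89 in Paupar KD and 5.34 in control KD, with a median log2 change of 1.49, per the authors' deposited table. The 89 lower sites had medians of 5.97 in Paupar KD and 7.16 in control KD, with a median log2 change of -1.11, by the authors' deposited table. Of the higher sites 13 (14.3%) lay at promoters, and of the lower sites 32 (36.0%). In the whole set the promoter share was 27.7%, with 19.2% at control concentrations of 5 to 5.5 and 38.1% at 7 to 7.5. Direction and signal were therefore not separated in these shares. Each direction fell on as many genes as sites, 91 and 89. By control concentration, below 6 there were 30, 22 and 17 higher sites in the bands below 5, 5 to 5.5 and 5.5 to 6, and 0 lower ones in each, according to the authors' deposited table. In the band of 7 to 7.5 there were 3 higher and 34 lower, and in that of 7.5 to 8 there were 2 higher and 20 lower, per the authors' deposited table. The median log2 change went with the same bands, at 0.28 below 5, -0.27 at 5.5 to 6 and -0.50 at 7.5 to 8, by the authors' deposited table. The bands use the control value that the change also contains, so this order was not tested.

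Promoters were neither more nor less common in the set than in the table, but they were much less common than at other sites in the same range of control concentration above 5. Promoters, which the authors' annotation extends to 3 kb from a start, held 1392 of the 5032 sites (27.7%), against 27.5% of all sites and 45.0% of the strong sites. Introns held 1838 (36.5%) and distal intergenic sequence 1500 (29.8%), with 165 sites in exons, 70 downstream of genes, 62 in 3′ UTRs and 5 in 5′ UTRs. Yet among sites with control concentrations of 6 to 8, 848 of the 2400 sites of the set (35.3%) lay at promoters, against 1102 of the 1375 others (80.1%), a difference of -44.8 percentage points. The gap was present in every band above 5: it was 19.2% against 39.4% at 5 to 5.5, 32.0% against 75.1% at 6 to 6.5 and 41.4% against 91.4% at 7.5 to 8. Below 5 the shares were 17.4% and 18.9%. Neighbouring sites share libraries and are not replicates, so no test was run over sites.

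**Figure D2:**
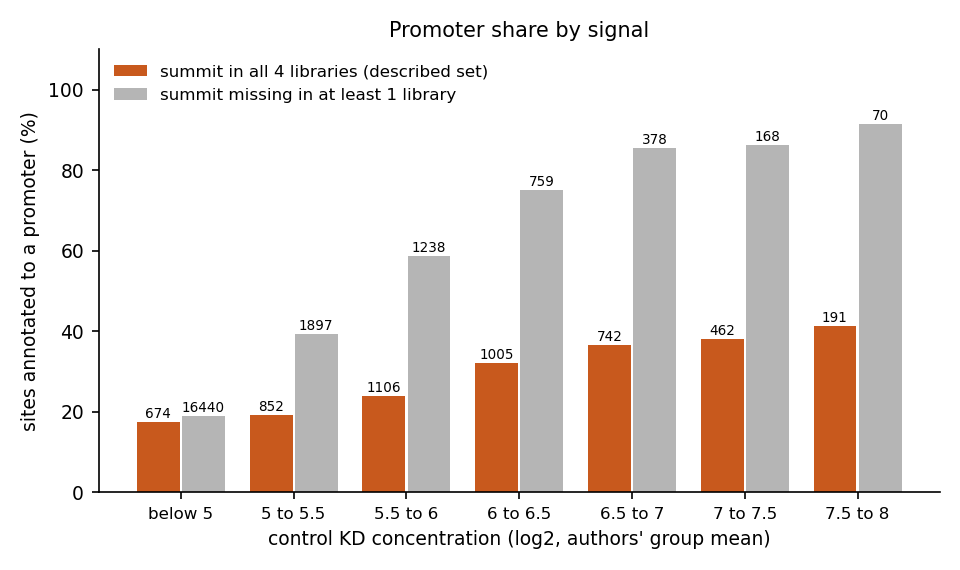
Percent of sites annotated to a promoter (y axis) in bands of the authors' control KD concentration (x axis, log2), for the 5032 described sites (left bars) and for the other sites below 8 (right bars). Numbers above the bars are the sites in each; from a concentration of 5 upwards the right bar is the taller in every band, up to 91.4% against 41.4%.

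The other sites of the 6 to 8 range missed summits more often in some libraries than in others. Of the 1375, 958 (69.7%) had none in Paupar KD replicate 1, 209 (15.2%) none in Paupar KD replicate 2, 728 (52.9%) none in control KD replicate 1 and 908 (66.0%) none in control KD replicate 2. Their promoter share was 81.8% at the 11 sites where no library had a summit, 90.6% where 1 library had one, 84.0% with 2 libraries and 65.7% with 3, against 35.3% with all 4. Median concentrations in this range were 6.23 at the set and 6.0 at the others in Paupar KD, and 6.61 at the set and 6.43 at the others in control KD, according to the authors' deposited table. The set was thus somewhat higher in both groups, and why the others lacked summits was not tested. Only 170 of the 1375 (12.4%) had summits of all 4 libraries within 1 kb. Stk38l, whose sequence is given above, had 7.82 in Paupar KD and 7.98 in control KD with summits in 2 libraries, and Gabpb1, a subunit of the ETS factor GABP, had 7.31 in Paupar KD and 7.99 in control KD with a summit in 1, per the authors' deposited table. With each library left out of the rule in turn, the shares were 35.7 to 37.9% at the set and 80.9 to 82.2% at the others. With sites placed by their Paupar KD concentration of 6 to 8 instead, they were 32.9% and 70.7%.

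Within the set, promoter sites carried a little more signal and had the lower median change after Paupar KD. Their medians were 5.88 in Paupar KD and 6.25 in control KD with a median log2 change of -0.39, by the authors' deposited table. Intron sites had 5.65 in Paupar KD and 5.84 in control KD (median log2 change -0.20), and distal intergenic sites 5.68 in Paupar KD and 5.82 in control KD (-0.21), according to the authors' deposited table. Over the whole set the median change was -0.27 at control concentrations of 5.5 to 6 and -0.37 at 6 to 6.5, by the authors' deposited table. Class and signal were therefore not separated here. The authors' deposited table called 13 promoter sites higher and 32 lower, 33 intron sites higher and 24 lower, and 40 distal sites higher and 27 lower. Over all tested sites of any class 3.39% were called higher and 0.88% lower. By distance to the nearest start, 1047 sites (20.8%) lay within 1 kb, 1750 (34.8%) at 10 to 50 kb and 161 (3.20%) beyond 200 kb, against 19.4%, 35.0% and 2.78% of all sites. Of the intron sites 628 (34.2%) were in a first intron, against 34.5% of all intron sites. Over the assembled chromosomes the share of sites that belonged to the set ran only from 16.9% on chromosome 1 to 21.5% on chromosome 8. By these measures position along the genome was close to that of the whole table.

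At alpha-cell genes the glucagon promoter was among the highest-ranked sites of every library. At Gcg, which encodes the glucagon precursor, the promoter site ranked at the 98.4 and 98.8 percentiles of the summit scores of the Paupar KD libraries and at the 97.6 and 96.7 percentiles of the control KD libraries. The concentrations at Gcg were 7.64 in Paupar KD and 7.01 in control KD (log2 change 0.63, FDR 0.155), per the authors' deposited table. Thus Gcg stood near the top of every list and its difference was not called. The lists differ in length, so ranks are given as a description and show no change between groups. The promoter site of Ttr, the transthyretin gene, had 4.85 in Paupar KD and 4.73 in control KD (FDR 0.943), per the authors' deposited table.

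Over the alpha-cell identity list, 8 of the 18 genes with any site had a site of the set. The set held 13 of their 79 sites (16.5%, against 19.2% of all sites). The authors' deposited table called 1 of the 13 higher and 0 lower, with a median log2 change of -0.06, against -0.27 over all 5032. Among all tested sites it called 3.39% higher and 0.88% lower, and with so few sites the counts of each list are a description. Besides Gcg and Ttr the 8 genes included Etv1, Tm4sf4 and Irx1, none of whose strongest sites was called. Etv1, an ETS factor gene, had 7.20 in Paupar KD and 7.26 in control KD (FDR 0.953), and Tm4sf4, a tetraspanin-family membrane protein gene, had 6.82 in Paupar KD and 7.53 in control KD (FDR 0.162), by the authors' deposited table. Irx1, an Iroquois homeobox gene, had 6.02 in Paupar KD and 6.33 in control KD (FDR 0.729), according to the authors' deposited table.

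The genes that Pax6 is known to control in alpha cells had 12 sites of the set among 38 (31.6%, against 19.2% of all sites), at 6 of 11 genes. Of the 12, the authors' deposited table called 1 higher and 0 lower, against 3.39% and 0.88% of all tested sites. At Pax6 itself, a promoter site 0.4 kb before a start ranked at the 87.7 and 94.0 percentiles in Paupar KD and at 82.0 and 81.4 in control KD. Concentrations at Pax6 were 7.23 in Paupar KD and 7.52 in control KD (log2 change -0.29, FDR 0.643), according to the authors' deposited table. Ffar1, a fatty acid receptor gene of islet cells, was close to the upper limit with 7.25 in Paupar KD and 7.95 in control KD (FDR 0.105), by the authors' deposited table. Maf, another Gcg activator, had 5.45 in Paupar KD and 6.38 in control KD at its promoter (FDR 0.133), according to the authors' deposited table. The Maf summits were uneven, at the 10.8 and 63.4 percentiles in Paupar KD and at 68.0 and 36.3 in control KD, and they were spread over 401 bp. Scg5, which encodes the chaperone of the convertase Pcsk2, had 5.89 in Paupar KD and 6.32 in control KD (FDR 0.623), per the authors' deposited table.

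**Figure D3:**
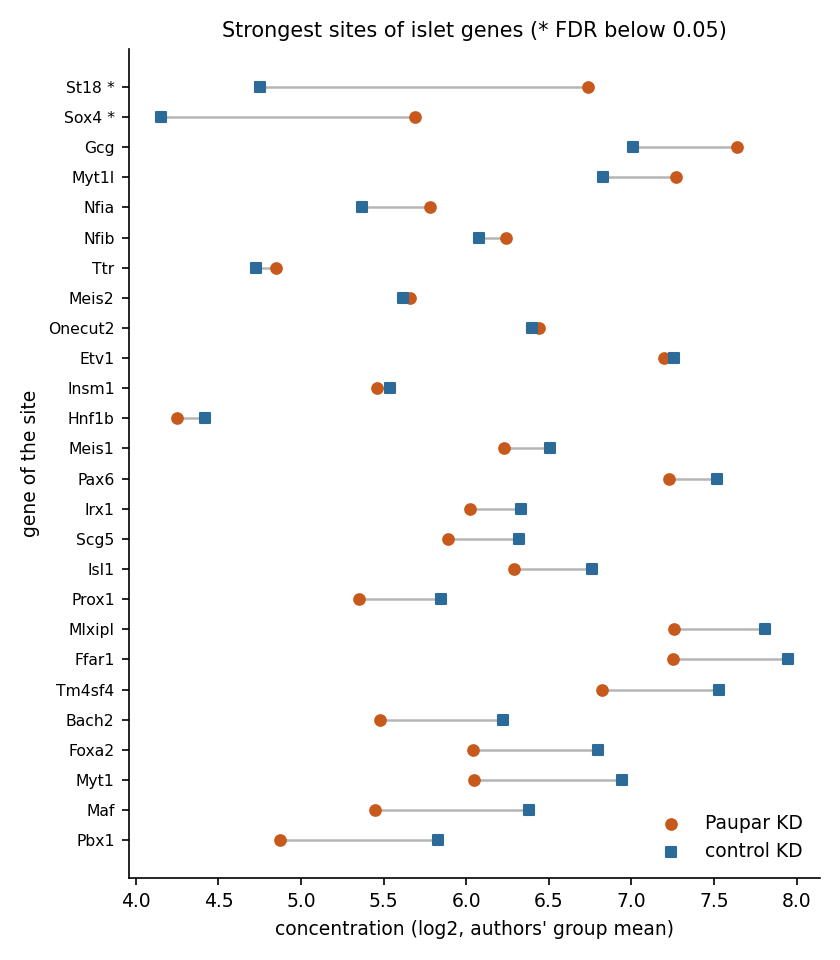
Concentrations in Paupar KD (circles) and control KD (squares) on a log2 scale, from the authors' deposited table, at the strongest site of the set for 26 genes of the alpha-cell and islet transcription factor lists, ordered by log2 change. Stars mark an FDR below 0.05; St18 and Sox4 are the 2 genes so marked, both higher after Paupar KD, while 9 of the 26 changes were above 0.

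Islet transcription factor genes had 39 of 154 sites in the set (25.3%, against 19.2% of all sites), at 18 of 32 genes. Of all tested sites the authors' deposited table called 3.39% higher and 0.88% lower, and of the 39 it called 2 higher and 0 lower. St18, a zinc finger gene active in endocrine progenitors, had the largest of these differences at its promoter. The St18 summits ranked at the 94.0 and 93.7 percentiles in Paupar KD and at 61.3 and 43.2 in control KD. Both Paupar KD ranks were thus above both control KD ranks, as at all 91 sites called higher and at 26.8% of the 5032. Its concentrations were 6.74 in Paupar KD and 4.75 in control KD (log2 change 1.99, FDR 5.99e-05), according to the authors' deposited table. Sox4, a factor of endocrine differentiation, ranked at 93.6 and 89.7 in Paupar KD and at 64.2 and 28.7 in control KD, 21.2 kb upstream of its start. The Sox4 concentrations were 5.69 in Paupar KD and 4.15 in control KD (FDR 0.0472), per the authors' deposited table. Foxa2, Isl1, Insm1, Myt1, Prox1 and Meis2, all regulators of endocrine or foregut cells, also had sites of the set that were not called. The strongest was that of Mlxipl, the glucose-responsive factor ChREBP, with 7.26 in Paupar KD and 7.81 in control KD (FDR 0.245), and Foxa2 had 6.04 in Paupar KD and 6.80 in control KD (FDR 0.232), by the authors' deposited table. Over the 39 sites the median log2 change was -0.17, according to the authors' deposited table.

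Genes of the beta-cell list, not all of them particular to beta cells, had sites in these alpha-line cells too. The set held 17 of their 64 sites (26.6%, against 19.2% of all sites), at 6 of 14 genes. The authors' deposited table called 2 of the 17 higher and 0 lower, against 3.39% and 0.88% of all tested sites. Slc30a8, the zinc transporter of insulin granules, is also made in alpha cells. Its promoter site ranked at the 98.1 and 97.6 percentiles in Paupar KD and at 87.5 and 70.3 in control KD. At Npy, a neuropeptide gene, a site 166 kb upstream ranked at 95.9 and 98.6 in Paupar KD and at 85.0 and 90.4 in control KD. In both, each Paupar KD rank was above each control KD rank, as at all 91 sites called higher and at 26.8% of the 5032. The log2 changes were 1.09 at Slc30a8 (FDR 0.0397) and 1.24 at Npy (FDR 0.00548) by the authors' deposited table. The strongest beta-cell sites were not called: Abcc8, the sulfonylurea receptor gene, had 7.20 in Paupar KD and 7.26 in control KD (FDR 0.958), and Nkx6-1, which encodes a homeodomain factor of beta cells, had 7.12 in Paupar KD and 7.30 in control KD (FDR 0.805), according to the authors' deposited table. Pdx1, another such factor, had 6.2 in Paupar KD and 6.45 in control KD (FDR 0.772), per the authors' deposited table.

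Hormone processing and secretion genes had 20 of 113 sites in the set (17.7%, against 19.2% of all sites), at 12 of 27 genes. The authors' deposited table called 1 of the 20 in each direction, where 3.39% of all tested sites were called higher and 0.88% lower. At Cpe, which encodes the carboxypeptidase that trims peptide hormones, an intron 1 site (chr8:64665015-64665114) ranked at the 99.4 and 97.4 percentiles in Paupar KD and at 78.6 and 46.9 in control KD. The Cpe concentrations were 7.25 in Paupar KD and 5.11 in control KD (log2 change 2.14, FDR 4.43e-06), according to the authors' deposited table. Unc13a, which primes secretory vesicles, had 6.63 in Paupar KD and 7.48 in control KD 2.38 kb before its start (log2 change -0.85, FDR 0.0456), per the authors' deposited table. Its ranks were nevertheless close, at 94.1 and 92.7 in Paupar KD and 94.8 and 94.7 in control KD. The strongest site of the list was at Pam, the peptide amidation enzyme gene, with 7.32 in Paupar KD and 7.82 in control KD (FDR 0.352), by the authors' deposited table.

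Some lens, eye and neural targets of Pax6 had sites of the set in the alpha line. Any site at all was listed for 9 of the 22 lens and eye genes and for 13 of the 23 neural genes. The lens and eye list had 7 of 36 sites (19.4%, against 19.2% of all sites) at 5 of 9 genes. All 7 had a log2 change below 0 (median -0.50), against 69.0% of the 5032 (median -0.27), according to the authors' deposited table. Of all tested sites it called 0.88% lower, and of these 7 it called 1 lower. That site was at Crybb1, a lens beta-crystallin gene, 733 bp downstream of its start, with 5.19 in Paupar KD and 6.62 in control KD (log2 change -1.43, FDR 0.0115), per the authors' deposited table. The Crybb1 ranks overlapped, at 73.0 and 18.5 in Paupar KD and 85.9 and 62.3 in control KD. The neural list had 11 of 38 sites (28.9%) at 6 of 13 genes, with a median log2 change of -0.38 by the authors' deposited table. Where 3.39% of all tested sites were called higher, 1 of these 11 was. This was a site 36.8 kb from Hes1, a Notch effector gene, which ranked at 97.5 in both Paupar KD libraries and at 62.7 and 33.6 in control KD. The Hes1 concentrations were 6.85 in Paupar KD and 4.78 in control KD (FDR 7e-05), according to the authors' deposited table. Its Notch pathway partner Dll1 had 6.95 in Paupar KD and 7.33 in control KD (FDR 0.526), per the authors' deposited table.

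Housekeeping groups had 18.4 to 28.6% of their listed sites in the set, against 19.2% of all sites. Cytosolic ribosomal protein genes had 19 of 90 sites in the set (21.1%), mitochondrial ribosomal protein genes 16 of 77 (20.8%), oxidative phosphorylation genes 16 of 87 (18.4%), splicing factor genes 24 of 99 (24.2%) and proteasome genes 10 of 35 (28.6%). The authors' deposited table called a single one of these sites, 87.6 kb from Rps24 with 5.14 in Paupar KD and 6.52 in control KD (FDR 0.0401). Their median log2 changes were -0.26, -0.34, -0.43, -0.18 and -0.32, in the same order, by the authors' deposited table. Among their highest were the promoters of Ndufs7, a complex I subunit gene, with 7.36 in Paupar KD and 7.86 in control KD (FDR 0.285), and of Mrpl30, with 6.87 in Paupar KD and 7.65 in control KD (FDR 0.0624), according to the authors' deposited table. The splicing regulator gene Ptbp1 had 6.78 in Paupar KD and 7.36 in control KD at its promoter (FDR 0.255), per the authors' deposited table. Genes of the NuRD remodelling complex had 3 of 18 sites, at Chd3, Chd5 and Mta1, with 0 called by the authors' deposited table. Genes named Zfp, for zinc finger proteins, had 79 of 379 sites (20.8%) at 59 of 194 genes, with 1 called higher (Zfp608) and 1 called lower (Zfp516), according to the authors' deposited table. For comparison with all these groups, 3.39% of all tested sites were called higher and 0.88% lower.

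The 10 largest rises were all away from core promoters. The largest was a site 102 kb upstream of Agbl1, a cytosolic carboxypeptidase gene (chr7:76127644-76127743), which ranked at the 99.2 and 99 percentiles in Paupar KD and at 50.3 and 39.4 in control KD. Its concentrations were 7.49 in Paupar KD and 4.49 in control KD (log2 change 3.0, FDR 6.97e-13), per the authors' deposited table. Gm34068, a predicted gene, had 7.96 in Paupar KD and 5.16 in control KD (log2 change 2.80, FDR 0.00282), and Tox3, an HMG-box factor gene, had 7.45 in Paupar KD and 4.82 in control KD (2.63, FDR 3.31e-10), by the authors' deposited table. Foxp1, a forkhead factor of alpha-cell growth, had an intron site with 5.86 in Paupar KD and 3.41 in control KD (2.45, FDR 0.00135), according to the authors' deposited table. The others were 5830416I19Rik, Acaca, Syk, Speer4b, Galk1 and Babam2, with log2 changes of 2.15 to 2.42 per the authors' deposited table. Acaca encodes acetyl-CoA carboxylase and Syk a tyrosine kinase of immune receptors. Of these only the site of Galk1, the galactokinase gene, was in the promoter class, 2.26 kb before its start. At all 91 sites called higher, both Paupar KD ranks exceeded both control KD ranks, as they did at 1351 (26.8%) of the 5032.

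The 10 largest falls were smaller in size. The rule held the control concentration below 8 and required a summit in Paupar KD, which limits falls, so nothing is read from this. The largest fall was in an intron 21.0 kb from Nat9 (chr11:115208847-115208946), which ranked at the 34.5 and 54.3 percentiles in Paupar KD and at 89.3 and 72.2 in control KD. Its concentrations were 4.73 in Paupar KD and 6.75 in control KD (log2 change -2.02, FDR 7.29e-05), by the authors' deposited table. Alg2, a glycosylation enzyme gene, had 4.88 in Paupar KD and 6.59 in control KD (-1.71, FDR 0.00143), and Hdac4, a histone deacetylase gene, had 4.97 in Paupar KD and 6.64 in control KD (-1.67, FDR 0.00122), according to the authors' deposited table. The Hdac4 site ranked at 59.5 and 2.90 in the 2 Paupar KD libraries, against 73.1 and 81.0 in control KD, so the Paupar KD libraries were uneven there. The others were Myl2, Celsr1, Mrgprd, Trp53bp2, Crybb1, Gm5091 and Nepro, with log2 changes of -1.65 to -1.40 per the authors' deposited table. Celsr1 is a planar polarity cadherin gene, and its site was also uneven, at the 4.91 and 68.0 percentiles in Paupar KD and at 82.8 and 67.3 in control KD. Of the 89 sites called lower, 47 had both Paupar KD ranks below both control KD ranks and 1 had both above, where 660 (13.1%) of the 5032 had both below.

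The sites with the most signal after Paupar KD were mostly distal or intronic. A site 27.7 kb upstream of Spin1, which encodes a histone methylation reader, was highest with 8.72 in Paupar KD and 7.86 in control KD (FDR 0.00492), by the authors' deposited table. It ranked at the 99.9 percentile in both Paupar KD libraries and at 99.1 and 99 in control KD. Slc4a3, an anion exchanger gene, had 8.54 in Paupar KD and 7.86 in control KD (FDR 0.0983), and Tmem163, a zinc transport protein gene, had 8.39 in Paupar KD and 7.55 in control KD (FDR 0.0297), according to the authors' deposited table. Ankrd44, Arhgef10, Ankrd46, Frmd4a, Ttc7b, Cntnap2 and Setbp1 followed, with 8.09 to 8.29 in Paupar KD and 7.11 to 7.96 in control KD, per the authors' deposited table. Of these 10, the authors' deposited table called Spin1, Tmem163, Arhgef10, Ankrd46 and Setbp1 higher. The rule kept the control concentration below 8, so a site of the set above 8 in Paupar KD shows a rise by construction. Over all tested sites 3.39% were called higher. Ankrd44, Gm15915, Rpgrip1l, Slc4a3 and Ndst4 were the most evenly high, with percentiles of at least 99.1 in all 4 libraries.

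The limit of 8 ran through a continuous range of signal. Just inside were Rpgrip1l, Nfasc, Snd1 and Stim2 with 7.98 in control KD and Sh3d19 with 7.97, and 7.16 to 8.09 in Paupar KD, by the authors' deposited table. Just outside were Edn3, Gm13056, En1, Ralgapa2 and Plekha5 with 8.0 in control KD and 7.27 to 7.88 in Paupar KD, according to the authors' deposited table.

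In each library's own list the median rank of these sites was above the middle. The median percentile of their summit scores was 74.0 and 80.1 in Paupar KD replicates 1 and 2 and 77.5 and 68.3 in control KD replicates 1 and 2. Some sites ranked low, with 376 and 127 in the lowest quartile of the Paupar KD lists and 270 and 480 in that of the control KD lists. The rule required a summit in every list, which may itself favour high scores, so nothing is read from these medians. The lists differed in length, with 15611 and 17942 summits in Paupar KD and 14311 and 9983 in control KD. Sites of the set took 32.2% and 28.0% of the Paupar KD summits and 35.2% and 50.4% of the control KD summits. For 3021 of the 5032 sites the ranks of the groups overlapped. Spearman correlations of the ranks between libraries were 0.61 to 0.78 across the sites, highest between the Paupar KD libraries (0.78) and next between the control KD libraries (0.75). They are given as a description, since all sites of a library share its depth and list.

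**Figure D4:**
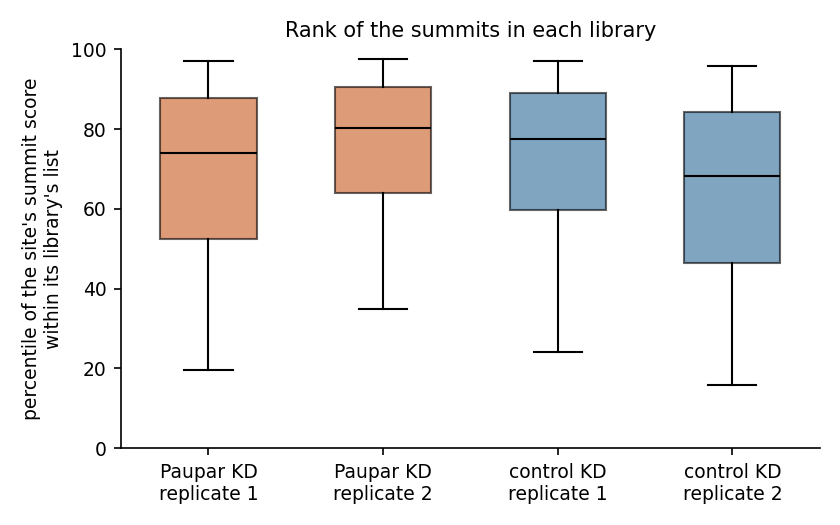
Percentile of the best summit score of each of the 5032 sites within its own library's list (y axis), for the 4 Pax6 ChIP libraries (x axis), Paupar KD at left. Boxes span the quartiles with the median as a line and whiskers reach the 5 and 95 percentiles; medians lie between 68.3 and 80.1, and the lists differ in length.

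The 4 summits of a site typically lay within about a site's width of each other. The distance between the outermost of the 4 summits of a site had a median of 96 bp (quartiles 56 and 159 bp, range 4 to 473 bp), and it was 31.5 bp at the strong sites. It was at most 50 bp at 1061 sites (21.1%) and over 250 bp at 440 (8.74%). Pairs of libraries had summits a median of 43 bp apart within Paupar KD, 34 bp within control KD and 37 to 54 bp across groups. The summit lay a median of 39 and 32 bp from the site's middle in the Paupar KD libraries and 31 and 36 bp in the control KD libraries. The group means were 35.5 ± 4.95 bp in Paupar KD and 33.5 ± 3.54 bp in control KD (SD, n = 2 each), and an exact two-sided permutation test gave p = 0.67, where 4 libraries allow no p below 0.33. Sites called lower had their summits closer together than sites called higher, with medians of 60 and 114 bp. Their median control concentrations were 7.16 and 5.34 by the authors' deposited table. Over the whole set the median distance was 65 bp at 7 to 7.5 and 118.5 bp at 5 to 5.5. Direction of change and control concentration went together among the called sites, and which of them the contrast follows was not tested.

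**Figure D5:**
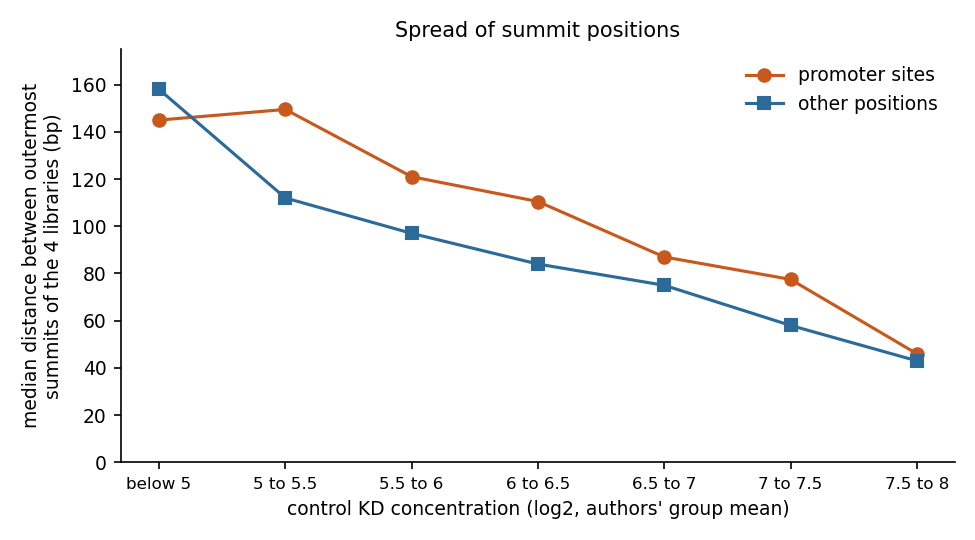
Median distance between the outermost summits of the 4 libraries (y axis, bp) in bands of the authors' control KD concentration (x axis, log2), for promoter sites (circles) and sites elsewhere (squares) of the set. The distance is smaller at higher signal, 46 bp at promoters and 43 bp elsewhere in the top band, against 145 and 158 bp in the lowest band.

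Summits lay closer together at sites with more signal. In the bands of control concentration from lowest to highest, the median distance between outermost summits at promoters was 145, 149.5, 121, 110.5, 87, 77.5 and 46 bp. From 5 upwards promoters had the wider distances in each band, for example 110.5 bp at promoters and 84 bp elsewhere at 6 to 6.5. The tightest site was in an intron annotated to Celrr, a long non-coding RNA, where the 4 summits lay within 4 bp and the concentrations were 7.16 in both Paupar KD and control KD, per the authors' deposited table. Ttc17, Ahi1, Zfp608 and Ccdc12 followed with 5 or 6 bp. The widest were Mrtfb, Sez6l2, 4930431P22Rik, Sesn1 and Svopl, at 455 to 473 bp, with 4.56 to 5.71 in Paupar KD and 3.84 to 5.76 in control KD, by the authors' deposited table.

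Most genes had a single site of the set, and a few genes had many. Of the 3445 genes, 2567 had 1, 533 had 2, 169 had 3 and 176 had 4 or more. A630001O12Rik, Cdh13 and Rybp had 11 each, of 27, 36 and 29 listed sites. Cdh13 encodes a cadherin without a transmembrane domain, and its 11 sites were spread over 1040 kb with 4.57 to 6.67 in Paupar KD and 4.82 to 6.83 in control KD, according to the authors' deposited table. Rybp, a Polycomb complex subunit gene, had 4.44 to 7.13 in Paupar KD and 4.61 to 7.37 in control KD over 214 kb, with 1 site called, per the authors' deposited table. Camta1, Maml3 and Wdr25 had 10 each, and Gse1, Hdac4 and Septin9 had 9 each. Maml3 encodes a Notch coactivator and Septin9 a cytoskeletal septin. Changes below 0 prevailed at Gse1, with 8 of 9 sites and a median of -0.62, by the authors' deposited table. Sites of the set were at least 849 bp apart, and 926 had another within 10 kb.

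Rank and concentration disagreed at a few sites, which were picked after their values were seen. Prdx6, a peroxiredoxin gene, had a site 50.3 kb away with only 4.11 in Paupar KD and 3.84 in control KD, according to the authors' deposited table. Its summits nonetheless ranked at the 95.4 and 95.1 percentiles in Paupar KD and at 86.8 and 89.0 in control KD, within 23 bp of each other. A site in Specc1l, listed at -0.02 in Paupar KD and 0.55 in control KD, was the 1 site of the set outside the authors' adjustment, per the authors' deposited table. It still had summits in all 4 libraries, at the 26.7 and 20.3 percentiles in Paupar KD and 35.5 and 55.4 in control KD. The Proser1 promoter went the other way, with 6.84 in Paupar KD and 7.09 in control KD by the authors' deposited table. Its summits ranked at 0.0577 and 6.91 in Paupar KD and at 2.54 and 22.9 in control KD, near the bottom of most lists. The promoters of Cep350, Dusp6 and Sgip1 were low in Paupar KD replicate 1 alone, at the 0.538, 8.22 and 8.06 percentiles, against 45.3 or more in the other 3 libraries.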

How the data were processed

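Pax6 ChIP libraries (2 per group) of alphaTC1 cells were used, and the 4 inputs were left aside (not analysed here). Reads were processed with Bowtie2, MACS2, DiffBind and ChIPseeker on build mm10, per the submitters' processing notes. No version, setting or use of the inputs is stated in the labels. The authors' deposited table gives per site a concentration per group and their difference, read as log2 from the values, with a p-value and an FDR. Its fold is control KD minus Paupar KD, and the sign was turned here. The deposited summit lists, one per library, carry a score read as −log10 of the q-value, used only for ranks within a list (percentiles, ties averaged). The authors' deposited positions and distances to gene starts are in bp on mm10. Depth is unknown here, which leaves counting error without an interval.

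The summit list under control KD replicate 2 is numbered differently and was assigned by its sample. A site's middle was matched to summits within 250 bp, with the nearest used for position and the best for rank. No site test could be rerun on group means, so the authors' FDR below 0.05 was the call. The members, gene lists, words and tests were chosen with earlier results of these data known. Named are the strongest site of each alpha-cell and islet gene, the 2 strongest of each other list and its called sites, the 10 largest rises and falls among calls, the 10 highest after Paupar KD, the 10 genes with most sites, the 5 nearest to each side of 8, the 5 smallest and largest distances between outermost summits, the 5 highest lowest ranks and the 6 strongest with TTCACGC. Alpha-cell Pax6 targets and the other lists share some genes. A gene table of GRCm38.p6 restored 51 symbols that a spreadsheet had turned into dates, by Entrez ID. Words were searched in RefSeq promoter sequences (250 bases before to 50 after a start). Matching was tested on simulated data. Python 3.11.15, pandas 2.3.3, numpy 2.4.6, scipy 1.17.1 and matplotlib 3.10.9 were used. Alternatives changed the window, the limits, the libraries required, the FDR and the promoter class. A few genes that the rule names are not reported here, while counts over lists include them.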

Additional observations from a re-analysis of the deposited data

How the results depend on the processing

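The number of sites stayed within 1.5 times of 5032 under each alternative run, and with each library left out of the rule in turn it was 5391 to 6808. With summits within 100 bp, 55 sites were called higher, the median log2 change was -0.30, 26.06% lay at promoters and the median distance between outermost summits was 70 bp; within 500 bp that distance was 108 bp. With summit scores of at least 5 the promoter share was 26.15% and the distance 88 bp. At an FDR below 0.01, 50 sites were called higher and 15 lower (1.45% and 0.143% of all tested sites), and below 0.1, 198 were called lower (1.87%). Counting only sites within 1 kb of a start, 20.81% were at promoters. Leaving out a library each, calls were 91 to 174 higher and 91 to 110 lower, the median log2 change -0.30 to -0.18, the promoter share 27.56 to 28.39% and the distance 68 to 84 bp, 3 summits being closer than 4 by construction; the 174 came without control KD replicate 2, the shortest list. The promoter gap at concentrations of 6 to 8 was -45.2 to -44.1 points without each library and -37.8 by Paupar KD concentration; these settings and those of the gap in general were chosen after seeing the data. The group difference in median summit distance to the site's middle was 2 bp, and -0.5 to 6.5 bp without each library, reversed at -0.5 bp without control KD replicate 1 or without Paupar KD replicate 1; the cause was not tested. The replicate numbers did not pair the libraries (correlation of deviations 0.04 for ranks and -0.02 for positions), and with a replicate block the difference was 2 bp (exact sign-flip p = 1.0). The share with the Pax word was 5.10% with 6 letters and 4.78% over 300 bases; a window of 150 bp to each side of the middle was not run, as only promoter sequences were used here. Calls rest on group means of 2 libraries of unknown depth.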
